A study of Mus musculus with 2 samples.

Results

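The genes described here encode ligands and receptors of axon guidance: semaphorins, ephrins, Slits and netrins with the plexins, neuropilins, Eph receptors, Robo receptors and Unc5 receptors that read them. The rule used symbols only, although the families were picked with earlier results of these data known, and it took 65 of the 23183 gene symbols listed, 33 for ligands, 31 for receptors and 1, Plxna4os1, for an antisense RNA at the Plxna4 locus that encodes neither. Sequenced RNA came from mouse cavernous endothelial cells (MCECs) in culture, with 1 library, HG+HBS, from a culture that received the HBS vehicle and another, HG+PC-NVs, from a culture that received PC-NVs. MCECs were primary cells that sprouted from penis tissue, kept in M199 with 20% serum, heparin and VEGF and used at passages 2 to 4, and the mice of the study were C57BL/6J males of 8 weeks. Both cultures were held without serum for 24 hours and then in high glucose (HG, 30 mM), and PC-NVs, nanovesicles made by pressing cavernous pericytes through filters, were added at 1 µg/mL. The methods place RNA isolation 72 hours into the glucose condition and 24 hours after the vesicles, while the sample labels give 5 days of glucose. With 1 library per condition the differences below have no replicate check, so they describe these libraries, and no p-value was computed.

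The values are the authors' normalized FPKM (fragments scaled to transcript length and library size), so levels can be compared between genes. Rows of a symbol were summed, and a fold or log2 ratio is HG+PC-NVs against HG+HBS on the log2(FPKM + 1) scale unless said otherwise. Where a pair of values is given, that of HG+HBS comes first. The files hold no read counts. From the step between low values, the HG+HBS library was estimated to hold about 13400000 fragments, the HG+PC-NVs library about 11600000, and 95% intervals computed from those estimates cover counting error only.

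Guidance molecules steer growing axons by attraction or repulsion at the growth cone, and the same families guide endothelial sprouts and set boundaries between cells. Class 3 semaphorins are secreted and act through a neuropilin, which binds the ligand, and an A-type plexin or Plxnd1, which signals. Ephrins are tethered to the membrane and bind Eph receptor tyrosine kinases on a touching cell, Slits are secreted ligands of Robo receptors, and netrin 1 binds Unc5 receptors, Dcc and neogenin.

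The culture did not carry the full set of transcripts that its label implies. Of 16 endothelial markers, 11 had a mean level under 1 FPKM, among them Kdr (0.518 FPKM in HG+HBS against 0.438 FPKM in HG+PC-NVs), Tek, Vwf and Erg. Pecam1, a standard endothelial marker, was at 1.05 and 0.938 FPKM, and Cdh5 was at 5.05 and 5.73 FPKM. All 10 fibroblast markers were above the filter, of which 9 were lower in HG+PC-NVs, with a median log2 ratio of -0.26, among them Col1a2 at 312 and 198 FPKM. Dcn was the 1 that was higher, at 623 and 1283 FPKM, and the summed level of the list was 2228 FPKM in HG+HBS against 2514 FPKM in HG+PC-NVs, while the endothelial list summed to 65.9 and 51.2 FPKM. The other markers past the filter were Eng (29.0 and 21.4 FPKM), Esam (17.4 and 11.7 FPKM), Egfl7 (9.48 and 8.57 FPKM) and Flt1 (1.19 and 0.835 FPKM). Among guidance genes known from endothelium, Robo4 was at 0.297 and 0.109 FPKM and Sema3g at 0.117 and 0.0909 FPKM, while Plxnd1, Ephb4, Efnb2, Nrp1 and Unc5b, described below, were all above 10 FPKM. In such bulk RNA, fewer cells of a type and less RNA per cell cannot be told apart.

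Of the 65 genes, 46 had a mean level of at least 1 FPKM over both libraries (70.8%, against 51.0% of all symbols) and are described with ratios. The lowest gene inside this filter was Plxnb1 with a mean of 1.04 FPKM, and the highest outside it was Sema4d with 0.854 FPKM. Of the 46, 1 was at least 2-fold higher in HG+PC-NVs, the ligand Slit2, where 2.47% of the 11828 genes past the same filter were. Another 2 of the 46, Sema3f and Sema3d, were at least 2-fold lower (4.35%), where 0.829% of all genes were. At 1.5-fold, 3 were higher (6.52%, against 5.47% of all genes) and 8 were lower (17.4%, against 3.64%). The share higher at 1.5-fold was thus close to the background, and the share lower was above it. None of the 46 passed 4-fold, which 82 of the 11828 genes did.

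Differences of any size, those past 1.5-fold included, leaned towards lower values in HG+PC-NVs. Of the 46 genes, 32 were lower (69.6%, against 51.6% of all genes) and 14 were higher, where 48.4% of all genes were. Their median log2 ratio was -0.21, against -0.01 over all genes, and their median absolute log2 ratio was 0.30, against 0.17. Among the 22 receptors past the filter 17 were lower, with a median of -0.23, and among the 24 ligands 15 were lower, with a median of -0.17. The summed FPKM of the ligands was 463 in HG+HBS against 497 in HG+PC-NVs, so the ligand total was higher while most ligands were lower. Slit2 alone went from 46.2 to 104 FPKM. The summed FPKM of all genes was higher too, 521666 in HG+HBS against 580717 in HG+PC-NVs, which bears on every summed level given here. By counting error alone, the interval of the FPKM ratio lay above 1 for 10 genes, below 1 for 25 and held 1 for 11. The same count was not made over all genes, so it does not set the guidance genes apart.

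**Figure D1:**
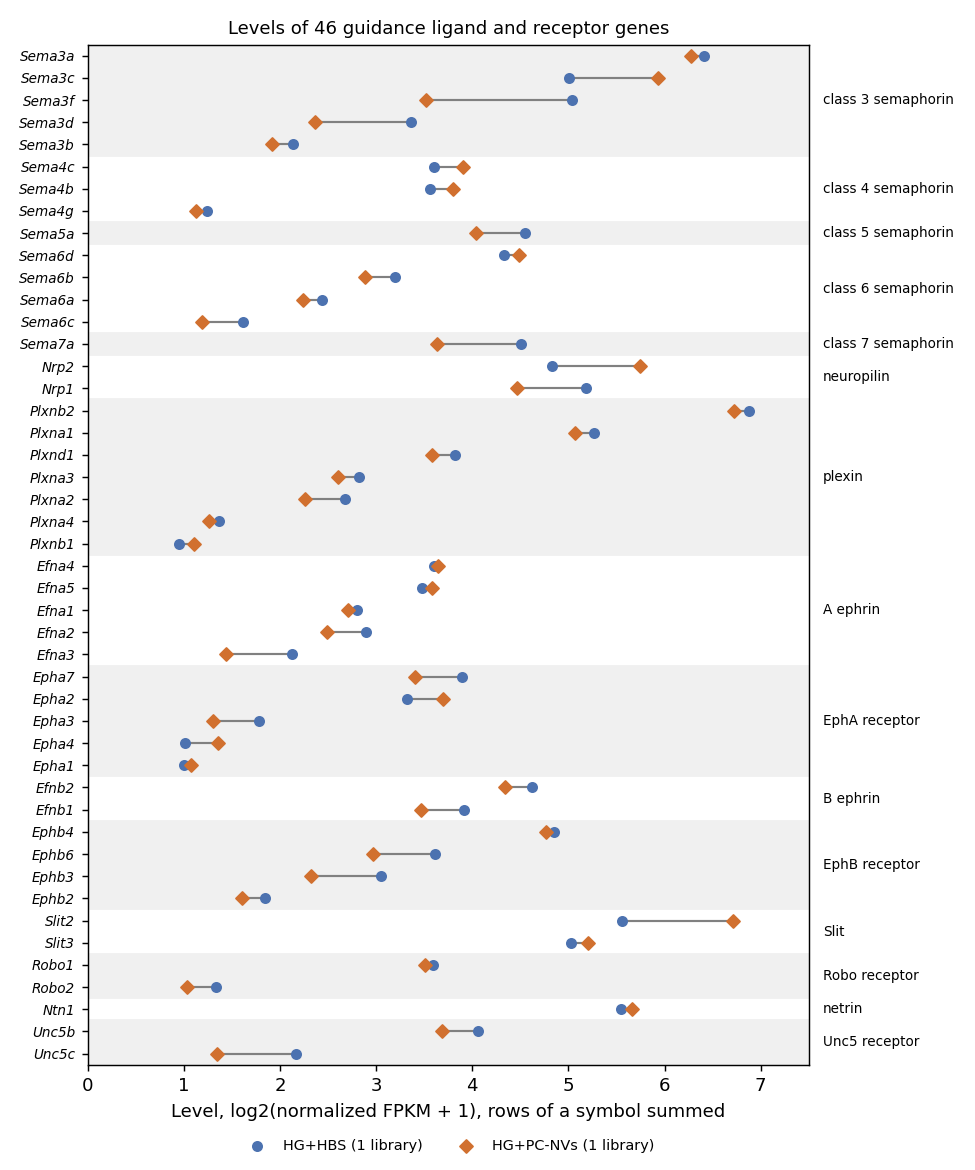
Level of each of the 46 guidance genes past the filter, as log2(normalized FPKM + 1) with the rows of a symbol summed, in the HG+HBS library (blue circles) and the HG+PC-NVs library (orange diamonds), 1 library each, ordered by family. Slit2, Sema3c and Nrp2 lie to the right in HG+PC-NVs by 0.92 to 1.15, and Sema3f lies to the left by 1.52.

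**Figure D2:**
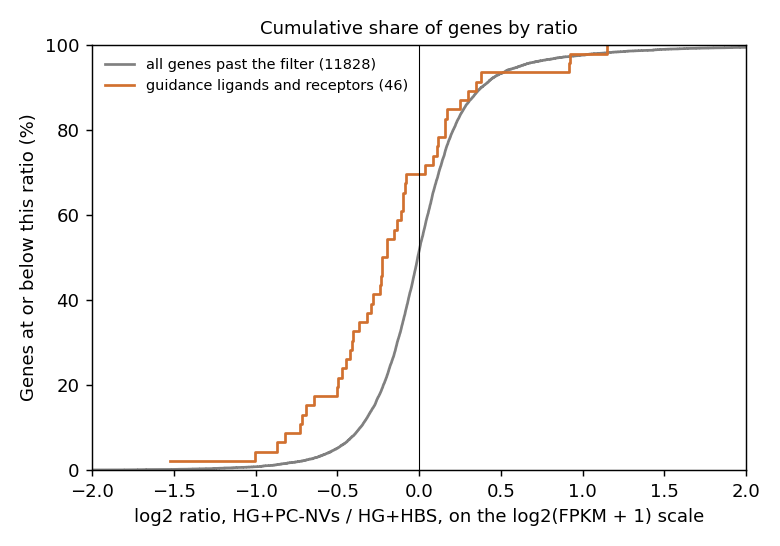
Cumulative percentage of genes at or below a given log2 ratio (HG+PC-NVs over HG+HBS) for the 46 guidance genes (orange) and for all 11828 genes past the filter (grey), with the x axis limited to values between -2 and 2. The orange line runs above the grey one at negative ratios and crosses 0 at 69.6%, against 51.6% for all genes.

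The most abundant guidance transcript in both libraries was that of Plxnb2, a plexin that binds class 4 semaphorins, at 117 FPKM in HG+HBS against 105 FPKM in HG+PC-NVs. Sema3a followed in HG+HBS (84.3 FPKM), then Slit2 (46.2 FPKM), Ntn1 (45.6 FPKM) and Plxna1 (37.4 FPKM). In HG+PC-NVs the order after Plxnb2 was Slit2 (104 FPKM), Sema3a (76.5 FPKM), Sema3c (59.9 FPKM) and Nrp2 (52.8 FPKM). Slit2 and Plxnb2 were nearly level there. In all, 23 of the 46 genes were at 10 FPKM or more in both libraries.

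The sequences upstream of a pair of the genes past 2-fold are shown to set a higher beside a lower gene. They are the 250 bases before the RefSeq start site on GRCm38.p6, forward strand, with matches to any motif searched in capitals, Slit2 at chr5:47982905-47983154 and Sema3d at chr5:12382916-12383165. The last 17 bases of the Slit2 window lie inside the GENCODE gene. Of the 46 genes, 40 matched the RefSeq table by symbol, and Sema3f did not.
Slit2: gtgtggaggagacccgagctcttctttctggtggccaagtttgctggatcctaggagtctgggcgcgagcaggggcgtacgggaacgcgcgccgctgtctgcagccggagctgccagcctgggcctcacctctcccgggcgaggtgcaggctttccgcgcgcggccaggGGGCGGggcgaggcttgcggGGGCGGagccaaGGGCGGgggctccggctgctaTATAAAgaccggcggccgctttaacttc
Sema3d: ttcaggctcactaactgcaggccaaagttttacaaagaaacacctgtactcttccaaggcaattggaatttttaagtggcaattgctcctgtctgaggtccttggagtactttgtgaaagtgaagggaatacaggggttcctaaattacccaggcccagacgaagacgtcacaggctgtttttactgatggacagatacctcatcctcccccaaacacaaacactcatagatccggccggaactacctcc

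Searched on both strands were the NF-kB consensus, the AP-1 motif TGANTCA, the E-box CACGTG, the hypoxia core ACGTG (which the E-box contains), the GC box GGGCGG and TATAAA. The Slit2 window held 3 GC boxes. At least 1 GC box was in 38 of the 51 windows of guidance genes past the filter and in 32.7% of 32851 windows of this length. The 32851 windows were not limited to genes past the filter, so the shares are not like for like. Of the 51 windows, 2 held the NF-kB consensus, 2 AP-1, 3 the E-box, 10 the hypoxia core and 2 TATAAA. Of all windows, 3.90%, 6.75%, 6.02%, 16.6% and 12.4% did. The Slit2 window also held TATAAA, from 28 to 23 bases before the RefSeq start, and 12.4% of all windows held it at any position. The Sema3d window held none of the 6 motifs. Its content of G and C was 46.8%, against 69.6% for Slit2 and a median of 52.4% over all windows. These matches describe letters in the windows and say nothing of binding.

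Slit2, a large secreted protein that repels axons and acts on vessel sprouting through Robo receptors, lies on the forward strand of chromosome 5 of GRCm38 (the build that mm10 names) from 47983138 to 48307733. It was at 46.2 FPKM in HG+HBS, or about 4804 fragments, against 104 FPKM and about 9347 fragments in HG+PC-NVs. Slit2 was thus 2.22-fold higher, a log2 ratio of 1.15, and the ratio of FPKM had a counting interval of 2.17 to 2.32. Among all symbols Slit2 ranked 1752 by level in HG+HBS against 792 in HG+PC-NVs. The files list 4 rows for Slit2, of which 3 were higher and 1 was at 0 in both libraries, and the main row went from 41.1 to 95.1 FPKM.

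Its paralog Slit3, on chromosome 11, was at 31.7 and 35.8 FPKM, a log2 ratio of 0.17, and Slit1 was near 0 with 0.0542 and 0.0313 FPKM. The share of Slit2 in the summed Slit FPKM was 59.3% in HG+HBS against 74.3% in HG+PC-NVs. The Robo receptors were not higher along with the ligand. Robo1, the main Robo here, was at 11.0 and 10.4 FPKM, a log2 ratio of -0.08 with a counting interval of the FPKM ratio from 0.859 to 1.03. Robo2 was at 1.52 and 1.05 FPKM and Robo3 at 0.0905 and 0.123 FPKM. The ratio of Slit2 to Robo1 was 4.18 in HG+HBS against 9.99 in HG+PC-NVs.

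Class 3 semaphorins held the widest spread of any family, with 1 of 5 genes past the filter higher and 4 lower. Sema3f, a repellent that binds Nrp2 with preference and is known to restrain vessel growth, showed the lowest ratio of the whole set. It lies on the reverse strand of chromosome 9 from 107681500 to 107710475 and went from 31.9 FPKM in HG+HBS, about 1231 fragments, to 10.5 FPKM in HG+PC-NVs, about 350.2 fragments. Sema3f was thus 2.87-fold lower, a log2 ratio of -1.52, with a counting interval of the FPKM ratio from 0.290 to 0.370. Its rank among all symbols went from 2548 to 6225.

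Sema3c, which unlike most of its class often acts as an attractant and binds both neuropilins, was at 31.1 FPKM in HG+HBS against 59.9 FPKM in HG+PC-NVs. Sema3c was thus 1.90-fold higher, a log2 ratio of 0.92, from about 2282 and 3812 fragments, with a counting interval of the FPKM ratio from 1.83 to 2.03. Sema3c and Sema3f were thus at nearly the same level in HG+HBS, and Sema3c was at 5.73 times the level of Sema3f in HG+PC-NVs.

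Sema3d, a further secreted member, was at 9.32 and 4.15 FPKM. It was 2.00-fold lower, a log2 ratio of -1.002 (counting interval of the FPKM ratio 0.389 to 0.509), and sits on the 2-fold limit itself: with the log2 ratios centred on the median of all genes it was at -0.99 and no longer passed. Sema3d, Sema3a, Sema3e and Sema3c all lie on chromosome 5, with 536 kb between Sema3d and Sema3a and 4985 kb between Sema3d and Sema3c, so Sema3d and Sema3c differed in opposite directions from the same chromosome.

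Sema3a, the classical collapsing factor of growth cones and a ligand of Nrp1, stayed the leading semaphorin, with 84.3 FPKM in HG+HBS against 76.5 FPKM in HG+PC-NVs. Its log2 ratio was -0.14 with 3 rows summed and 0.13 when only its highest row was taken, so its direction depends on the rows. Sema3b, which lies 72.3 kb from Sema3f on chromosome 9, was at 3.41 and 2.76 FPKM, and its counting interval, 0.621 to 1.06, held 1. Sema3e and Sema3g were under the filter. The summed class 3 level was nearly equal, 160.3 FPKM in HG+HBS against 154 FPKM in HG+PC-NVs, while its make-up differed. Sema3c held 19.4% of it in HG+HBS against 38.8% in HG+PC-NVs, Sema3f 19.9% and 6.78%, and Sema3a 52.6% and 49.6%.

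The neuropilins, which bind class 3 semaphorins and forms of VEGF, differed in opposite directions. Nrp1, on chromosome 8 from 128358604 to 128503363, was at 35.4 FPKM in HG+HBS against 21.1 FPKM in HG+PC-NVs, a 1.65-fold lower value (log2 ratio -0.72, counting interval of the FPKM ratio 0.549 to 0.647). Nrp2, on chromosome 1 from 62703285 to 62818695, was at 27.5 and 52.8 FPKM, a 1.89-fold higher value (log2 ratio 0.92, counting interval 1.82 to 2.02). Nrp1 was therefore the more abundant neuropilin in HG+HBS, with 56.3% of their sum, and Nrp2 in HG+PC-NVs, with 71.4%.

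Nrp2 has 6 rows in the files, which carry no transcript identifiers, and 5 of them were higher. Its 3 largest rows went from 11.9 to 20.3, from 8.24 to 19.6 and from 3.96 to 8.35 FPKM. The row that went the other way was at 2.39 FPKM in HG+HBS against 0.795 FPKM in HG+PC-NVs. How reads were divided among rows is an estimate of the authors' software, and the summed level rests less on it. With the highest row alone the log2 ratio of Nrp2 was 0.72.

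**Figure D3:**
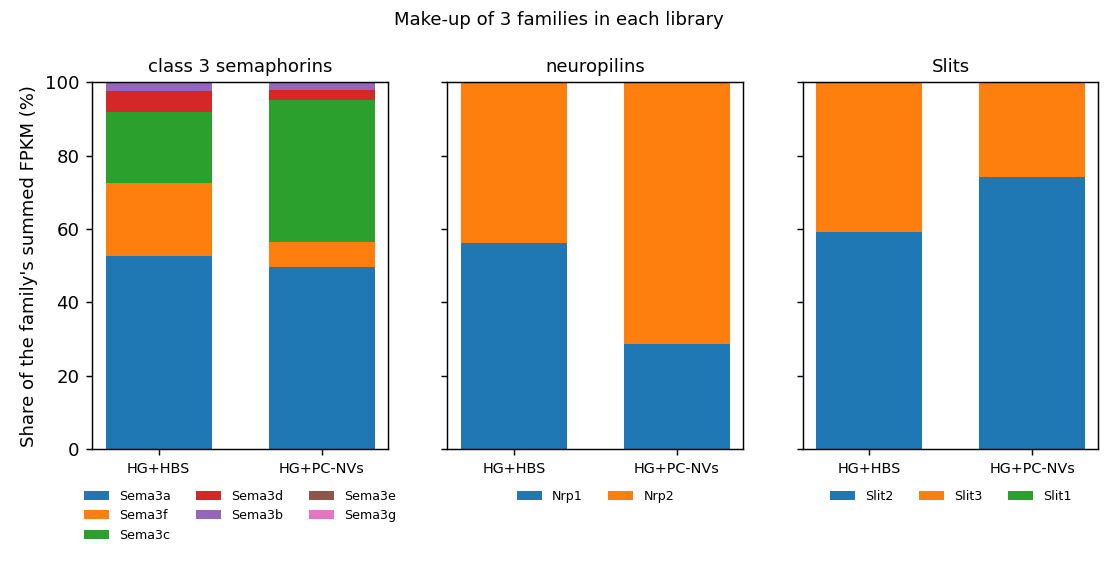
Share of each gene in the summed FPKM of its family (%), for class 3 semaphorins, neuropilins and Slits, in the HG+HBS and the HG+PC-NVs library, 1 library each. Sema3c goes from 19.4% to 38.8%, Nrp2 from 43.7% to 71.4% and Slit2 from 59.3% to 74.3%.

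**Figure D4:**
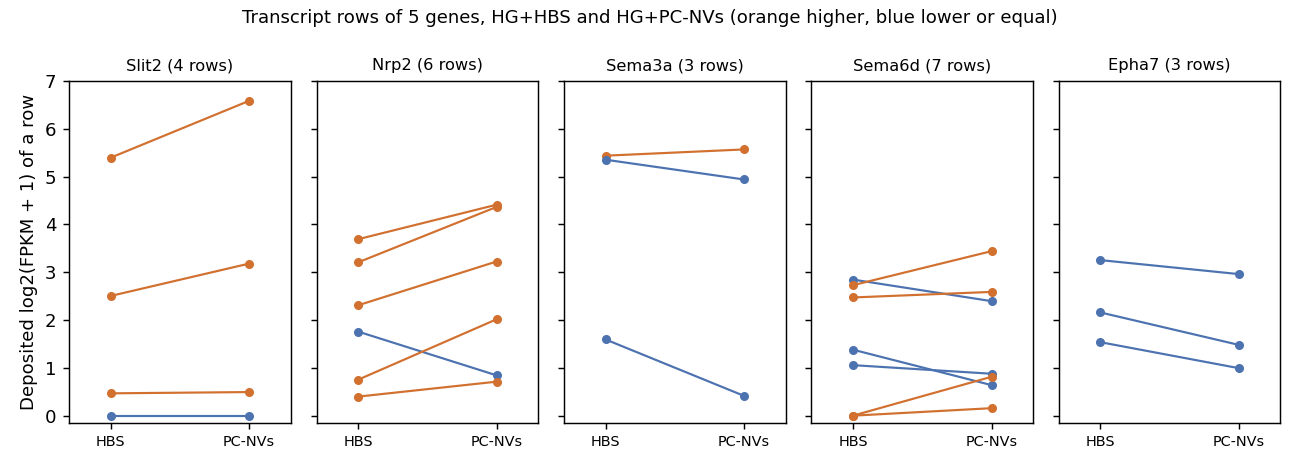
Deposited log2(FPKM + 1) of every transcript row of Slit2, Nrp2, Sema3a, Sema6d and Epha7 in the HG+HBS library (left point) and the HG+PC-NVs library (right point), with lines in orange where the row was higher in HG+PC-NVs and in blue where it was lower or equal. In Slit2 3 of 4 rows and in Nrp2 5 of 6 rows go up, in Epha7 3 of 3 go down, and in Sema3a and Sema6d the rows go both ways.

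Plexins, the signalling receptors of semaphorins, differed little. Of 7 past the filter, 6 were lower and 1, Plxnb1, was higher, and their log2 ratios ran from -0.41 (Plxna2) to 0.16. The counting intervals of Plxnb1 (0.944 to 1.63) and of Plxna4 (0.741 to 1.07), which was among the lower, held 1. Plxna1, a partner of neuropilins, was at 37.4 and 32.4 FPKM, and Plxnd1, the receptor of Sema3e on endothelium, was at 13.2 and 11.0 FPKM. The make-up of the family stayed near constant, with Plxnb2 at 64.1% of the summed plexin FPKM in HG+HBS against 65.4% in HG+PC-NVs. Plxnc1, the receptor of Sema7a, was under the filter with 0.616 and 0.417 FPKM, as was Plxnb3.

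Of the membrane-bound semaphorins, Sema7a differed most. This GPI-anchored member, which signals through integrin beta 1 as well as Plxnc1, was at 21.7 FPKM in HG+HBS against 11.4 FPKM in HG+PC-NVs. It was 1.83-fold lower, a log2 ratio of -0.87 with a counting interval of the FPKM ratio from 0.469 to 0.590. Itgb1, which encodes integrin beta 1, was at 214 and 233 FPKM. Sema5a, a member with thrombospondin repeats, was at 22.4 and 15.5 FPKM (log2 ratio -0.50). In class 4, Sema4c and Sema4b, ligands of B-type plexins, were both higher, from 11.2 to 13.99 FPKM and from 10.8 to 13.0 FPKM (log2 ratios 0.30 and 0.25). In class 6, whose members span the membrane, 1 of 4 was higher, Sema6d, at 19.1 and 21.4 FPKM. The log2 ratio of Sema6d was 0.16 with its 7 rows summed. It was 0.59 between the highest row of each library, but these were different rows. The row highest in HG+HBS went down, from 6.19 to 4.26 FPKM. The row highest in HG+PC-NVs went up, from 5.63 to 9.86 FPKM, so the direction depends on the row.

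**Figure D5:**
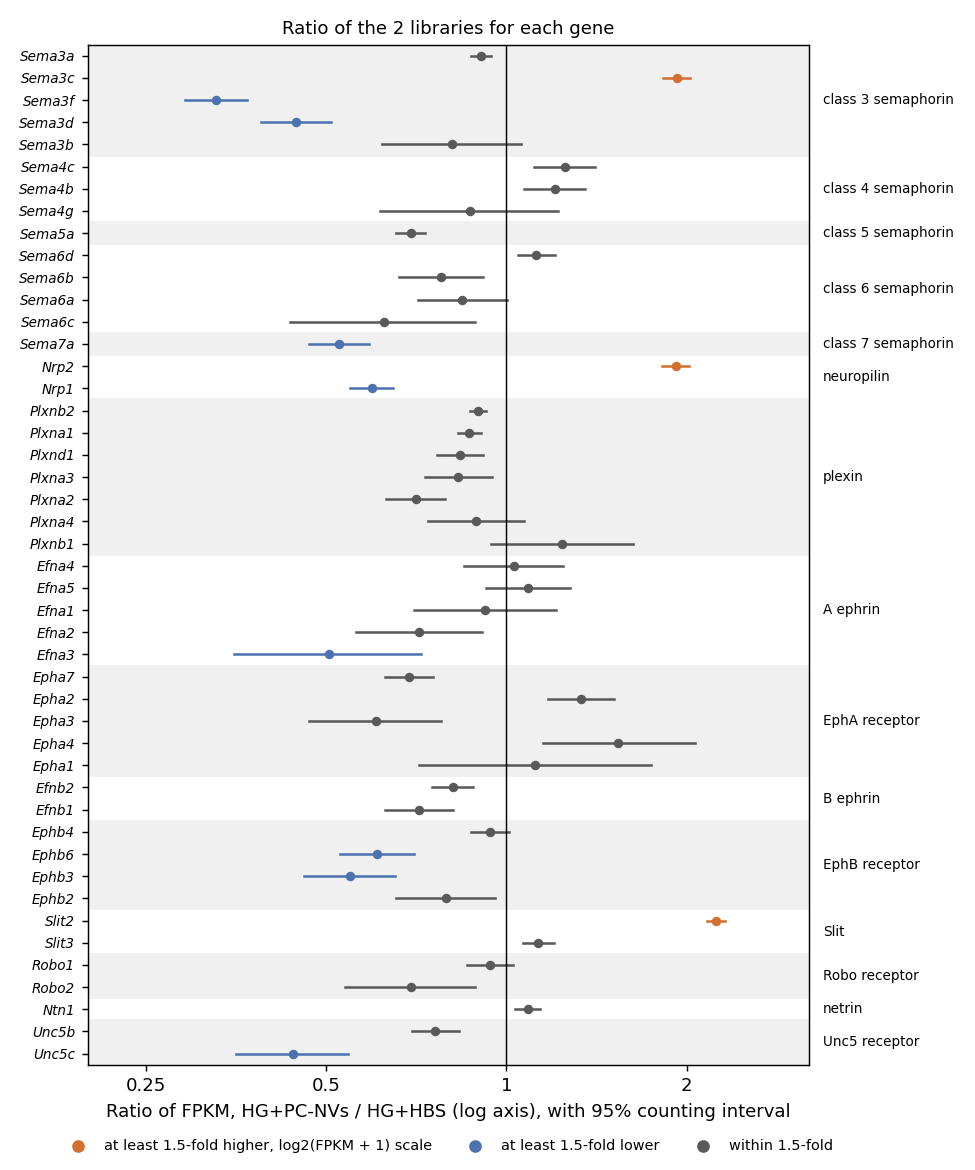
Ratio of FPKM in HG+PC-NVs to that in HG+HBS for each of the 46 genes (points, log axis) with its 95% exact Clopper-Pearson interval for counting error (lines), coloured by whether the gene was at least 1.5-fold higher (orange) or lower (blue) on the log2(FPKM + 1) scale, so that a low gene such as Epha4 is grey at a ratio of 1.54. In orange are 3 genes, led by Slit2, and in blue 8, led by Sema3f.

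In the ephrin-B system, which marks the border between arteries and veins and guides commissural axons, all 6 genes past the filter were lower in HG+PC-NVs. Of the 46 guidance genes 69.6% were lower, and of all genes 51.6%. Both ligands past the filter and 2 of the 4 receptors were within 1.5-fold. The ligands Efnb2 and Efnb1 were at 23.6 and 19.2 FPKM and at 14.03 and 10.04 FPKM, with log2 ratios of -0.28 and -0.44. Among the receptors, Ephb3 was at 7.30 and 4.003 FPKM, 1.66-fold lower, and Ephb6, whose kinase domain is inactive, was at 11.2 and 6.83 FPKM, 1.56-fold lower. With the highest of the 2 rows of Ephb6 alone, its log2 ratio was -0.38 in place of -0.64. Ephb4, the venous receptor of ephrin B2 and the most abundant Eph receptor, was at 27.9 and 26.1 FPKM, and its counting interval, 0.872 to 1.010, held 1. The family's smallest gene past the filter, Ephb2, was at 2.59 and 2.05 FPKM.

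The ephrin-A system went both ways. Epha2, a receptor of ephrin A1 that epithelial, endothelial and tumour cells use, was at 8.98 FPKM in HG+HBS against 12.0 FPKM in HG+PC-NVs (log2 ratio 0.38, counting interval of the FPKM ratio 1.18 to 1.51). Epha7, a receptor known from cortical and spinal axon sorting, was at 13.9 and 9.57 FPKM (log2 ratio -0.50), and all 3 of its rows were lower. Epha7 was thus the most abundant EphA receptor in HG+HBS, with 49.8% of their summed FPKM, and Epha2 in HG+PC-NVs, with 45.5%. Epha3 was at 2.43 and 1.47 FPKM and Epha4 at 1.011 and 1.56 FPKM.

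Of the ligands, Efna3 was 1.62-fold lower, at 3.38 and 1.71 FPKM, which is about 107 and 46.8 fragments, the fewest behind any of the 11 genes past 1.5-fold. Its counting interval ran from 0.351 to 0.719. Efna4 and Efna1 lie on either side of Efna3 on chromosome 3, at gaps of 10.4 and 32.8 kb, and both were within counting error, with Efna4 at 11.1 and 11.5 FPKM and Efna1 at 5.98 and 5.52 FPKM. Efna5 was at 10.1 and 11.0 FPKM and Efna2 at 6.44 and 4.61 FPKM.

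Netrin 1 was abundant and nearly level, and its Unc5 receptors were lower. Ntn1 was at 45.6 FPKM in HG+HBS against 49.5 FPKM in HG+PC-NVs (log2 ratio 0.12). Unc5b, a receptor through which netrin repels axons and vessel sprouts, was at 15.6 and 11.9 FPKM (log2 ratio -0.37, counting interval of the FPKM ratio 0.695 to 0.832). Unc5c was at 3.48 and 1.53 FPKM, 1.77-fold lower, and with a pseudocount of 0.1 in place of 1 its log2 ratio was -1.13, past 2-fold. The attractive receptor Dcc was near 0, at 0.115 and 0.164 FPKM, and its relative neogenin (Neo1) was at 27.4 and 30.1 FPKM. Ntn4, a laminin-binding netrin of basement membranes, was under the filter with 1.05 and 0.430 FPKM.

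The 19 genes under the filter were Sema3e, Sema3g, Sema4a, Sema4d, Sema4f, Sema5b, Plxnb3, Plxnc1, Epha5, Epha6, Epha8, Epha10, Efnb3, Ephb1, Slit1, Robo3, Robo4, Ntn4 and Plxna4os1. Their levels reached at most 1.05 FPKM in HG+HBS against 0.723 FPKM in HG+PC-NVs, and Epha8 and Epha10 were listed at 0 in both. Of these, Ntn4 had a counting interval of the FPKM ratio below 1, from 0.227 to 0.715, and for the others that had a value above 0 the interval held 1, so a difference was not detectable at this depth.

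A list of 81 other genes of the pathway held further ligands, receptors and signalling genes. Past the filter were 71, with a median absolute log2 ratio of 0.23, against 0.30 for the 46 guidance genes and 0.17 over all genes. Of the 71 past the filter, 3 were at least 1.5-fold higher and 5 lower, 0 passed 2-fold in either direction, and the median log2 ratio was -0.07. So 63 of 71 were within 1.5-fold, where 10751 of the 11828 genes past the filter were. Higher were Draxin, a secreted repellent that binds Dcc (5.59 and 11.2 FPKM), Rnd1, a small GTPase that binds plexins (0.748 and 1.99 FPKM), and Flrt3, a ligand of Unc5 receptors (2.45 and 4.34 FPKM). Lower were Ngef, the exchange factor ephexin 1 of EphA receptors (1.94 and 0.683 FPKM), Trio, an exchange factor in netrin signalling (20.5 and 12.2 FPKM), Dpysl3, a CRMP protein of semaphorin signalling (71.4 and 45.6 FPKM), Unc5a (1.51 and 0.651 FPKM) and Rgmb, a ligand of neogenin (33.6 and 22.0 FPKM). All 12 shared cytoskeletal effectors were within 1.5-fold too, as most genes were, among them Rhoa (178 and 211 FPKM), Rac1 (165 and 168 FPKM) and Cdc42 (259 and 261 FPKM).

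Markers of other cell types differed between the libraries as well. Of 10 myeloid markers, all past the filter, 7 were higher in HG+PC-NVs and 3 lower. At 2-fold, 4 were higher and 0 lower, where 2.47% and 0.829% of all genes were. The 4 were Cd14 (36.6 and 252 FPKM), Adgre1 (7.44 and 42.5 FPKM), Aif1 (2.93 and 12.9 FPKM) and Fcer1g (18.8 and 41.1 FPKM). Lower were Csf1r (8.39 and 6.20 FPKM), Cd68 (36.2 and 26.3 FPKM) and Lyz2 (212 and 193 FPKM), while Ptprc was at 1.44 and 1.67 FPKM. The summed level of the 10 was 355 FPKM in HG+HBS against 607 FPKM in HG+PC-NVs, and Cd14 differed most in FPKM among them. Of 12 pericyte and smooth muscle markers, 9 passed the filter, 3 higher and 6 lower. Pericyte markers went both ways, with Rgs5 (1.69 and 7.23 FPKM) and Kcnj8 (7.98 and 20.4 FPKM) higher and Cspg4 (20.4 and 12.2 FPKM) and Pdgfrb (38.4 and 33.7 FPKM) lower. The contractile genes Acta2 (27.6 and 8.02 FPKM) and Tagln (17.3 and 7.34 FPKM) were lower, and the list had a summed level of 122 and 96.0 FPKM. Myh11, a defining smooth muscle gene, was near 0 in both. Of 5 neuron markers, 2 passed the filter and differed in opposite directions, Tubb3 at 12.8 and 7.26 FPKM and Snap25 at 8.9998 and 14.9 FPKM, Rbfox3 was near 0, and the list summed to 22.9 and 22.7 FPKM. Of 6 epithelial markers only Krt18 passed (9.61 and 2.05 FPKM), with Cdh1, Krt5 and Krt14 at 0, and the list summed to 10.01 and 2.36 FPKM. The part of these cell types in the guidance genes' differences was not tested.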

How the data were processed

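The authors trimmed the reads with FASTX_Trimmer and BBMap, aligned them with TopHat to mm10 (per the labels' processing notes), counted reads with BEDTools, derived FPKM with Cufflinks and normalized in R with edgeR by what the methods call quantile normalization. They deposited log2(normalized FPKM + 1) for 33299 transcript rows per library, and the log form was read from the values: so converted, low values peak at 1 fragment and again at 1.99 and 2.01 times that. Versions and annotation are not given in the sources used here, nor whether strand was used in counting. The kit was stranded, with paired reads of 100 nt.

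Here values were converted to FPKM and summed over the rows of a symbol (112 rows, 65 genes, 22 of them with more than 1 row). Genes with a mean level of at least 1 FPKM over both libraries were kept, and ratios used a pseudocount of 1. The deposited values were not normalized further, although sorted values differed by over 0.05 in 2318 rows (a second quantile step was an alternative). Fragments were estimated from the most frequent low value of FPKM times length over 2189 genes with a single transcript over 1500 nt, and gene lengths are the median of GENCODE M21 transcripts with a RefSeq identifier, so fragments of genes with several rows are rough. The sources used here mention no molecular identifiers, so PCR copies count as fragments. Ratio intervals are exact Clopper-Pearson at 95%. Fold calls and the quantile step were tested on simulated data, where the changed genes were well above the filter and differed by more than 2-fold. The fragment estimates and the intervals were not tested in this way.

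Named were genes past the filter that differed at least 1.5-fold, the highest gene of each family, their partners, and genes of the pathway list past 1.5-fold. Other members, cytoskeletal effectors and cell type markers were named after their values were seen. Members and lists were chosen with earlier results of these data known. The values of 1 marker list are not reported here. Alternatives covered normalization, pseudocount, rows, filter and fold. Tables were made with pandas 2.3.3 and numpy 2.4.6 under Python 3.11.15, intervals with scipy 1.17.1 and plots with matplotlib 3.10.9.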

Additional observations from a re-analysis of the deposited data

How the results depend on the processing

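The count of genes at least 2-fold higher was 1 (Slit2) and that of genes at least 2-fold lower was 2 (Sema3f and Sema3d), and both were the same with quantile normalization between the libraries, with the highest row of a symbol only, without the filter and with a filter at 3 FPKM. With median centring 1 gene was lower, since Sema3d then missed the limit, and with a pseudocount of 0.1 FPKM 3 were lower, Unc5c being added, while the count over all genes was 201 in place of 98. With a fold threshold of 1.5 the counts were 3 and 8. The median log2 ratio of the members ran from -0.25 to -0.15 over these settings, and 46 members passed the filter, 46 with quantile normalization, 45 with the highest row only and 35 at 3 FPKM. Of 92 alternative log2 ratios of 23 named genes, 85 moved by less than their counting interval allows and 7 by more. The 7 were Plxnb2 (-0.23) and Slit2 (1.08) with quantile normalization, and Epha7 (-0.29), Ephb6 (-0.38), Nrp2 (0.72), Sema3a (0.13) and Sema6d (0.59) with the highest row only, where the alternative leaves out the other rows. The highest row was taken in each library apart, and for Sema6d it was a different row in each. No paired analysis was possible because HG+HBS and HG+PC-NVs have 1 library each, nor could a library be left out. Depth limits the genes under 1 FPKM.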
